A study of Mus musculus with 7 samples.

Results

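The mitochondrial genome is a small circular DNA that encodes 13 messenger RNAs (mRNAs), 2 ribosomal RNAs (rRNAs) and 22 transfer RNAs (tRNAs). Its transcripts were followed here together with the nuclear genes that copy, process and degrade them. The members were every listed gene whose symbol starts with mt-, which gave 21 genes (all 13 mRNAs, both rRNAs and 6 of the tRNAs), and 20 named nuclear genes of mitochondrial transcription, replication, RNA turnover and their regulation. All 41 were present among 12151 listed genes, and all passed the filter of at least 1 CPM (read counts scaled to a common library size) in at least 3 libraries.

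The RNA came from isolated mouse hepatocytes, the main cell type of the liver. The wild-type group (WT) has 3 untreated libraries and the group labelled ALAS1/2-KO has 4. The ALAS1 and ALAS2 proteins are the enzymes that start heme synthesis. In the ALAS1/2-KO group, Alas1 carried an allele whose exons 4 and 5 can be removed by an inducible Cre, Alas2 was to be lowered by injected siRNA coupled to GalNAc, and the libraries carry a tamoxifen label. Genotype, tamoxifen and siRNA therefore cannot be told apart, and the sources used here do not give the driver of Cre, the strain, the sex or the age. Whether each replicate is its own animal is not labelled, so the p-values reflect only how these libraries vary, which may be technical.

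Mitochondrial DNA is transcribed from both strands into long precursors by a dedicated RNA polymerase, and the tRNAs that lie between the mRNAs and rRNAs are cut out to release them. The 13 mRNAs all encode core subunits of oxidative phosphorylation, in complexes I, III, IV and V. Hepatocytes are rich in mitochondria, and mitochondrial transcripts commonly take a large part of their polyadenylated RNA.

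Library facts that touch these results are as follows. Listed reads per library ran from 22916097 to 34048680. The targeted Alas2 transcript averaged 11.3 ± 5.18 CPM in WT (SD, n = 3) against 0.44 ± 0.258 CPM in ALAS1/2-KO (SD, n = 4), and the groups did not overlap. Erythroid markers, of the cells in which Alas2 is normally most active, summed to 11.3 to 41.3 CPM in WT and 2.75 to 7.39 CPM in ALAS1/2-KO over 4 genes (median log2 fold change -2.28), 1 of them lower in the test (Hbb-bt), and their part in the Alas2 difference was not tested. Alas1 averaged 209 ± 109 and 322 ± 31.7 CPM (SD, n = 3 and 4, limma adjusted p = 0.277), counted over the whole gene, which does not check the removal of exons 4 and 5. Hepatocyte markers were abundant in every library, at a summed 108203 to 115208 CPM over 7 genes in WT and 70369 to 75280 CPM in ALAS1/2-KO. Most of that sum was Alb, at 93955 to 100209 CPM in WT and 49929 to 55979 CPM in ALAS1/2-KO. Alb was the only marker of the 7 that fell, and 0 rose. The median log2 fold change of the 7 was 0.37, so the lower sum does not describe the other markers. Markers of other liver and blood cells, 32 of 36 listed, summed to 1303 to 1721 CPM in WT and to 325, 901, 1872 and 1645 CPM in ALAS1/2-KO replicates 1 to 4. Most of that sum was Kupffer cell markers, at 744 to 1032 CPM in WT and 195 to 1253 CPM in ALAS1/2-KO, so it does not describe every cell type. Cholangiocyte markers (12.1 to 21.1 and 2.72 to 5.35 CPM) and erythroid markers did not overlap between the groups. Kupffer cell, endothelial, stellate, lymphocyte and neutrophil markers did overlap. Of the 32, 0 were higher and 3 were lower in the limma test, where 2.91% and 2.19% of all genes were. Their median log2 fold change was -1.05, and Krt19, Krt7, Epcam and Cd3e were not listed. ALAS1/2-KO replicate 1 stood apart, with the lowest level of these markers and the lowest level of mitochondrial RNA, so counts below are also given without it. In RNA from many cells, fewer cells of a type and less RNA per cell cannot be told apart.

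One stretch of the mouse mitochondrial genome has a near-perfect copy on chromosome 1, and this sets how 8 of the 13 mRNAs can be read. GENCODE M21, on the mm10 build, annotates 7 pseudogenes there, between 24611535 and 24616197 on the minus strand, and all 7 are listed in the table. The copies of mt-Co2 (Gm28661, 681 bases), mt-Atp6 (Gm10925, 678), mt-Co3 (Gm28437, 783) and mt-Nd4l (Gm10222, 294) had 0 mismatches. So did Gm28439, which holds the first 876 of the 1378 bases of mt-Nd4. Gm28438 differs from mt-Nd3 at 1 of 345 bases, T3C, counted from 1 at the start of the gene with the mitochondrial base first. Gm29216 holds the last 492 of the 1545 bases of mt-Co1, with 6 substitutions, all near its start (T1056A, C1057T, A1059G, A1060G, C1062A and A1066T). No copy of mt-Atp8 is annotated, but it lies between mt-Co2 and mt-Atp6, and the copied parts of those genes are 233 bases apart on both the mitochondrial genome and chromosome 1.

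The following 30-base windows, from GENCODE transcripts, show how little separates gene and copy, with differing bases in capitals. They are the start of mt-Nd3, bases 1054 to 1083 of mt-Co1, where the copy begins, and the start of mt-Co3, where no base differs.
mt-Nd3: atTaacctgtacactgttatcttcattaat
Gm28438: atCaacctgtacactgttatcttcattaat
mt-Co1: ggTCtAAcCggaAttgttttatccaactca
Gm29216: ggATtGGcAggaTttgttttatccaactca
mt-Co3: atgacccaccaaactcatgcatatcacata
Gm28437: atgacccaccaaactcatgcatatcacata
A read from an identical stretch cannot be placed on one of the loci by its sequence, and the sources used here do not say how such reads were counted. Per kilobase of gene, the 6 mRNAs inside the copied block stood between 19.8 (mt-Nd3) and 584 CPM (mt-Co3) in WT, against 20313 (mt-Nd5) to 98709 (mt-Co1) for the 6 abundant mRNAs, which are mt-Nd1, mt-Nd2, mt-Co1, mt-Nd4, mt-Nd5 and mt-Cytb. The other mRNA, mt-Nd6, is encoded on the opposite strand and stood at 593 CPM per kilobase.

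**Figure D1:**
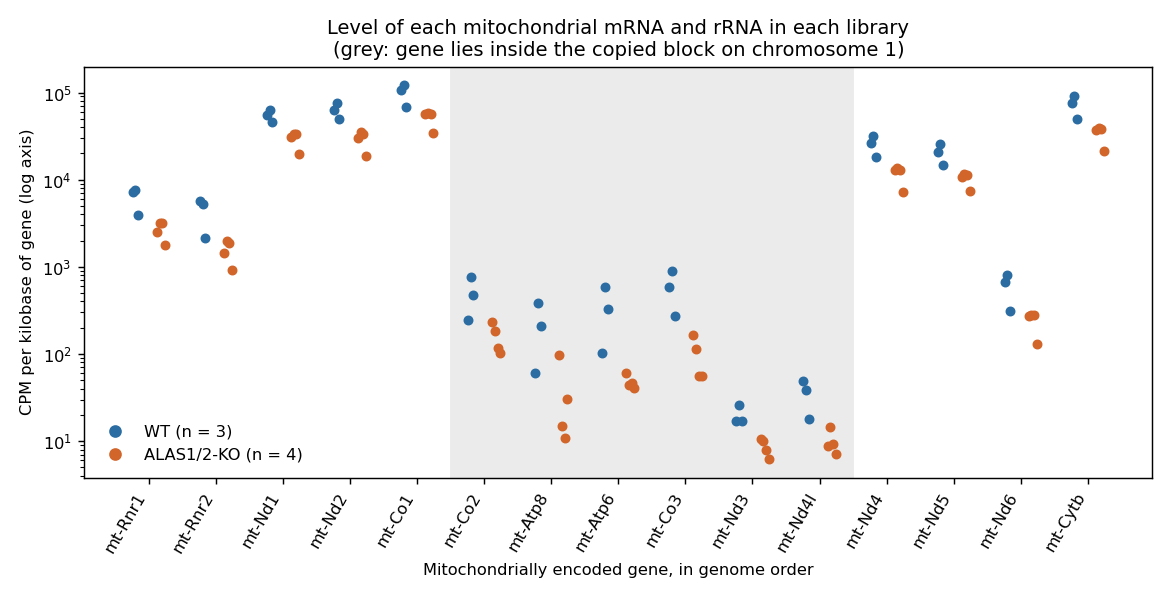
Level of the 13 mitochondrial mRNAs and 2 rRNAs in each library, in CPM per kilobase on a log axis, in genome order, with 1 point per library (blue WT, orange ALAS1/2-KO) and grey behind genes inside the copied block. Genes in the grey zone lie far below their neighbours in all 7 libraries, and orange points lie mostly below blue ones for each gene.

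Mitochondrially encoded genes took a smaller share of the reads in ALAS1/2-KO. They made up 38.4%, 43.2% and 31.9% of listed reads in WT replicates 1 to 3, and 16.8%, 25.3%, 27.3% and 25.8% in ALAS1/2-KO replicates 1 to 4. The lowest WT library lay above the highest ALAS1/2-KO library, by less than the range within either group. The means were 37.9% ± 5.68 (SD, n = 3) and 23.8% ± 4.72 (SD, n = 4), and the 95% Wilson interval of each library's share was at most 0.0199 percentage points to either side, for counting error only. On the deposited CPM scale, which uses scaled library sizes, the summed level averaged 439272 ± 112283 CPM for WT against 216836 ± 50489 CPM for ALAS1/2-KO, a ratio of 0.494 against 0.628 for the share of listed reads. The difference between the group means was -14.1 percentage points, and it ran from -17.1 (without WT replicate 3) to -11.4 (without WT replicate 2) when each library was left out in turn. Without WT replicate 2 and ALAS1/2-KO replicate 1 together, the libraries with the highest and lowest share, it was -9.07 points. The part that other cell types have in this difference was not tested.

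**Figure D2:**
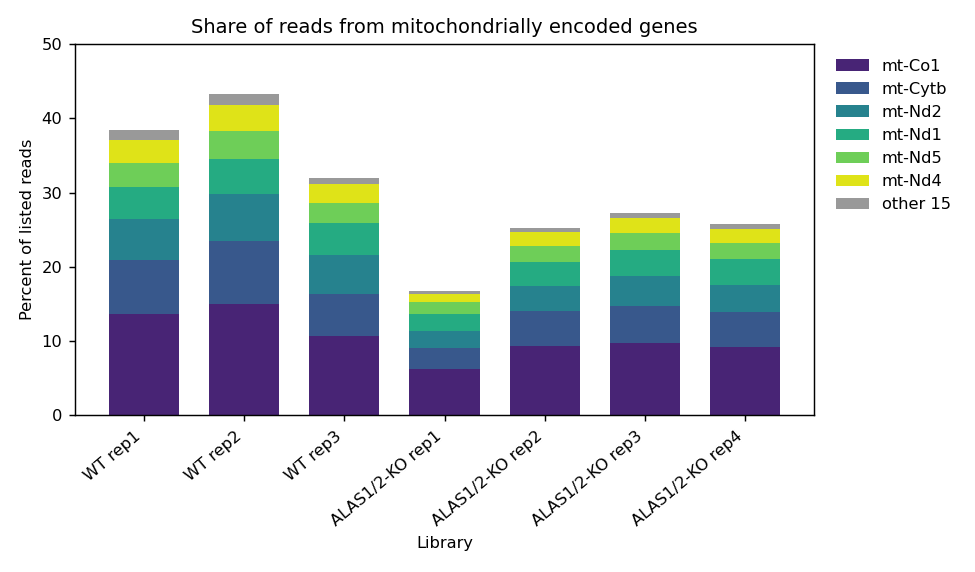
Stacked bars of the percent of listed reads from mitochondrially encoded genes in each of the 7 libraries, split into each of the 6 abundant mRNAs and the other 15 genes together. The WT bars reach 31.9% to 43.2% and the ALAS1/2-KO bars 16.8% to 27.3%.

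All 21 mitochondrially encoded genes had a lower mean in ALAS1/2-KO, and 8 of them fell in the test. The 8 were mt-Nd2, mt-Nd3, mt-Nd4l, mt-Co3, mt-Atp6, mt-Ti, mt-Tm and mt-Tt. The test was limma on the deposited log2 CPM with Benjamini-Hochberg adjustment over 12105 genes, with the threshold at an adjusted p of 0.05. By this rule 5.1% of all genes tested changed, 2.19% lower and 2.91% higher. For 17 of the 21 the groups did not overlap with ALAS1/2-KO lower, a pattern shared by 11.4% of all genes, and 21 of 21 had an unadjusted p under 0.05, against 23.7% of all genes in either direction. The median log2 fold change was -1.42, against -0.02 over all genes. Of the 13 genes that did not pass, adjusted p ran from 0.0511 to 0.152.

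The count of 8 rested on single libraries. It was 1, 0 and 9 without WT replicates 1, 2 and 3, 11, 4, 3 and 0 without ALAS1/2-KO replicates 1, 2, 3 and 4, and 1 without WT replicate 2 and ALAS1/2-KO replicate 1 together, with the median log2 fold change between -1.69 and -0.92 in these fits. With the mean log2 level of the non-parenchymal markers as a covariate, 0 of 21 passed, 7 had an unadjusted p under 0.05, and the median was -0.78. The markers themselves had a median log2 fold change of -1.05, so the covariate is partly tied to group. This fit cannot separate the part of those cells from that of the group.

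The 6 abundant mRNAs had log2 fold changes from -1.14 to -0.91. Of them 1, mt-Nd2, fell past the threshold, as 2.19% of all genes did. mt-Nd2 (ENSMUSG00000064345.1, chromosome M, 3914 to 4951, mm10, plus strand), a core subunit of complex I, the NADH dehydrogenase, stood at 65816, 79559 and 51396 CPM in WT replicates 1 to 3. In ALAS1/2-KO replicates 1 to 4 it stood at 19630, 30876, 36995 and 34817 CPM. All 4 ALAS1/2-KO libraries were lower than every WT library, with replicate 1 the lowest, and mt-Nd2 fell 2.17-fold (log2 fold change -1.12, SE 0.24, limma adjusted p = 0.039). The call was lost without WT replicate 2 (limma adjusted p = 0.18) and in 4 other of the 7 fits without a library.

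mt-Co1 (chromosome M, 5328 to 6872), the catalytic subunit of complex IV, cytochrome c oxidase, which carries heme, was the most abundant mRNA. It stood at 163767, 186998 and 106748 CPM in WT and at 52438, 86561, 90323 and 86727 CPM in ALAS1/2-KO. The groups did not overlap, WT replicate 3 lay closest to the ALAS1/2-KO libraries, and the difference did not pass (1.92-fold lower, limma adjusted p = 0.0763). mt-Cytb (14145 to 15288), the heme-binding cytochrome b of complex III, stood at 86290, 105575 and 56695 CPM in WT and at 24438, 42618, 45368 and 43214 CPM in ALAS1/2-KO. Its groups did not overlap either, and it was 2.12-fold lower without passing (limma adjusted p = 0.0669).

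The other 3 abundant mRNAs encode complex I subunits, and each lay just above the threshold. mt-Nd1 averaged 51875 ± 8072 CPM for WT against 28111 ± 6412 for ALAS1/2-KO (SD, n = 3 and 4, limma adjusted p = 0.0511). mt-Nd4 had 35076 ± 9569 and 15984 ± 4032 CPM (limma adjusted p = 0.0517), and mt-Nd5 had 37050 ± 9955 and 18850 ± 3635 CPM (limma adjusted p = 0.0512). For each of the 3, every ALAS1/2-KO library was below every WT library.

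Among the 6 abundant mRNAs the proportions of mitochondrial reads moved little. They together took 96.3% to 97.8% of mitochondrial reads in all 7 libraries. mt-Co1 made up 34.6% ± 1.04 for WT against 36.5% ± 0.675 for ALAS1/2-KO (SD, n = 3 and 4), with all ALAS1/2-KO values above the WT range. mt-Nd4 made up 7.96% ± 0.184 against 7.34% ± 0.232, with all ALAS1/2-KO values below the WT range. The proportions of mt-Cytb, mt-Nd1, mt-Nd2 and mt-Nd5 overlapped between the groups, and across the 6 the ratio of group means ran from 0.921 to 1.08. These proportions do not depend on how libraries were scaled, and a rise in one forces a fall elsewhere. Less abundant genes moved more, with a ratio of group means of 0.44 for the 6 mRNAs inside the copied block together and 0.655 for the tRNAs together. Neither overlapped, but for the 6 mRNAs the lowest WT library (0.157%) lay barely above the highest ALAS1/2-KO library (0.154%). Reads counted for the chromosome 1 copies are not in these proportions. Gm28437, the copy of mt-Co3, alone had 21280 reads in ALAS1/2-KO replicate 2 and 2399 in WT replicate 1. With the reads of the copies added, ALAS1/2-KO replicate 2 lies above WT replicate 1 and the groups overlap. The separation of the 6 mRNAs therefore holds only for reads placed on the mitochondrial genes.

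**Figure D3:**
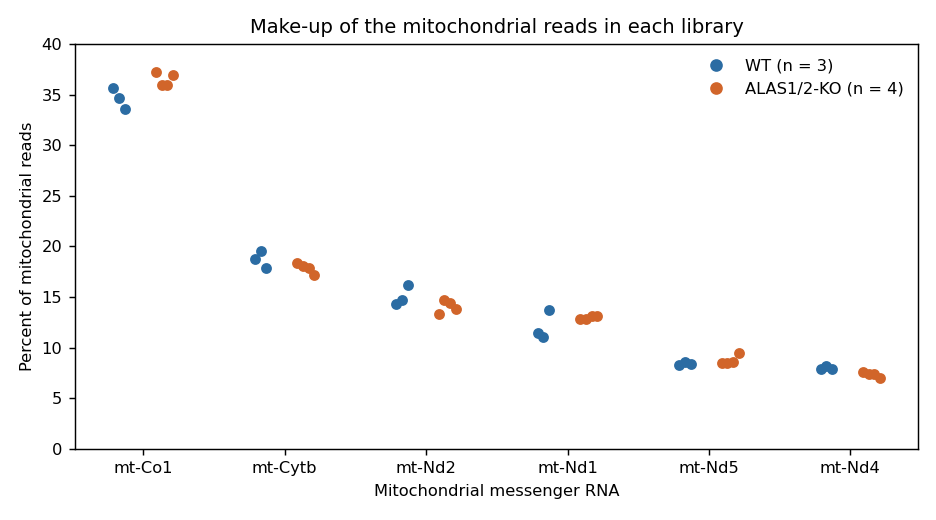
Percent of all mitochondrial reads taken by each of the 6 abundant mRNAs, with 1 point per library (blue WT, orange ALAS1/2-KO). mt-Co1 lies at 33.5% to 37.2% and the other mRNAs keep the same order of means in both groups.

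mt-Nd6 (13552 to 14070, minus strand), a complex I subunit and the only mRNA of the opposite strand, stood at 343, 418 and 161 CPM in WT and at 66.8, 141, 146 and 145 CPM in ALAS1/2-KO. WT replicate 3 was close to 3 of the ALAS1/2-KO libraries, and the difference did not pass (2.4-fold lower, limma adjusted p = 0.123). Per 1000 reads of its neighbour mt-Cytb, mt-Nd6 had 3.97, 3.96 and 2.85 reads in WT and 2.73, 3.31, 3.21 and 3.36 in ALAS1/2-KO, so this ratio overlapped between the groups. Strand handling is not given, so the reads counted for mt-Nd6 may not all come from its own strand.

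The 6 mRNAs inside the copied block had the widest range of differences among the mRNAs. Of the 6, 4 fell, where 2.19% of all genes did. mt-Co3 (8607 to 9390), a core subunit of complex IV, stood at 454, 706 and 213 CPM in WT and at 43.8, 131, 89 and 44 CPM in ALAS1/2-KO. It was lower in all 4 ALAS1/2-KO libraries than in any WT library, and fell 5.94-fold (log2 fold change -2.57, SE 0.52, limma adjusted p = 0.0378). Its copy Gm28437 stood at 125, 665 and 55.9 CPM in WT and at 18.7, 655, 210 and 31 CPM in ALAS1/2-KO, with no separation of the groups (limma adjusted p = 0.756). With the reads of gene and copy summed, mt-Co3 no longer passed (log2 fold change -1.71, limma adjusted p = 0.33). Without WT replicate 2 it did not pass either (limma adjusted p = 0.153).

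mt-Atp6 (7927 to 8607), the proton channel subunit of complex V, the ATP synthase, stood at 69.7, 401 and 226 CPM in WT and at 27.9, 41.6, 29.8 and 31.6 CPM in ALAS1/2-KO. The WT libraries were themselves far apart, and mt-Atp6 fell 5.71-fold (limma adjusted p = 0.0427). Summed with Gm10925 it fell by 1.99 on the log2 scale (limma adjusted p = 0.0395). It passed in 1 of the 7 fits without a library, the one without WT replicate 1 (limma adjusted p = 0.00711). mt-Atp8, its partner subunit on an overlapping reading frame, stood at 12.3, 77.7 and 43.2 CPM in WT and at 6.2, 20, 3.06 and 2.21 CPM in ALAS1/2-KO, with the groups overlapping (limma adjusted p = 0.128).

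The 2 small complex I subunits in the block were at very low levels. mt-Nd3 (9459 to 9806) stood at 5.85, 8.93 and 5.94 CPM in WT and at 2.18, 3.66, 3.45 and 2.77 CPM in ALAS1/2-KO, resting on 72 to 225 reads per library. It fell 2.26-fold (limma adjusted p = 0.0335), and summed with Gm28438 it did not pass (limma adjusted p = 0.511). mt-Nd4l (9877 to 10173) stood at 14.7, 11.6 and 5.3 CPM in WT and at 2.12, 2.62, 4.34 and 2.77 CPM in ALAS1/2-KO. It fell 3.33-fold (limma adjusted p = 0.0387), with its copy Gm10222 also lower (7.4 and 2.44 CPM, limma adjusted p = 0.0193) and the sum of both passing (limma adjusted p = 0.0212). mt-Nd4l lost its call in limma voom on recovered reads (limma voom adjusted p = 0.0786), and both mt-Nd3 and mt-Nd4l lost theirs without WT replicate 2 (limma adjusted p = 0.154 and 0.178). mt-Co2, a copper-binding subunit of complex IV, stood at 167, 520 and 326 CPM in WT and at 70.2, 159, 127 and 79.6 CPM in ALAS1/2-KO and did not pass (limma adjusted p = 0.0894).

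Both rRNAs were lower on average without passing. mt-Rnr1 (70 to 1024), of the small ribosomal subunit, stood at 6919, 7238 and 3789 CPM in WT and at 1719, 2402, 3037 and 3051 CPM in ALAS1/2-KO (2.31-fold lower, limma adjusted p = 0.0517). mt-Rnr2 (1094 to 2675), of the large subunit, stood at 8895, 8211 and 3394 CPM in WT and at 1466, 2274, 3116 and 2931 CPM in ALAS1/2-KO (2.67-fold lower, limma adjusted p = 0.0943). Neither overlapped between the groups, but WT replicate 3 was nearer to the ALAS1/2-KO libraries than to the other WT libraries. By limma 0 of the 2 passed, 2 had an unadjusted p under 0.05 (23.7% of all genes did), and limma voom called 1. The rRNAs took 2.01% to 3.44% of mitochondrial reads, with overlapping groups.

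Of the 6 listed tRNAs, 3 fell, where 2.19% of all genes did. mt-Tt (15289 to 15355), the threonine tRNA next to mt-Cytb, stood at 23.4, 27.7 and 15.2 CPM in WT and at 2.99, 6.03, 8.16 and 6.3 CPM in ALAS1/2-KO. Its groups lay well apart, and it fell 3.85-fold (log2 fold change -1.94, SE 0.35, limma adjusted p = 0.0284). mt-Ti (3706 to 3774), the isoleucine tRNA, stood at 21.4, 24.5 and 12.5 CPM in WT and at 3.17, 7.69, 5.81 and 4.82 CPM in ALAS1/2-KO (3.62-fold lower, limma adjusted p = 0.0264). mt-Tm (3845 to 3913), the methionine tRNA between mt-Nd1 and mt-Nd2, averaged 9.95 ± 2.86 CPM for WT and 3.69 ± 1.16 for ALAS1/2-KO, and fell 2.69-fold (n = 3 and 4, SD, limma adjusted p = 0.0382).

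As a proportion of mitochondrial reads, mt-Tt went from 0.00500% ± 0.000196 in WT to 0.00264% ± 0.000466 in ALAS1/2-KO and mt-Ti from 0.00437% ± 0.000389 to 0.00246% ± 0.000580, with no overlap for either. These genes are 67 to 69 bases long and overlap or touch an mRNA, so a read counted for them may belong to a longer RNA. mt-Te, mt-Tp and mt-Tw overlapped between the groups and did not pass (limma adjusted p = 0.101, 0.152 and 0.14). Without WT replicate 2, mt-Tt, mt-Ti and mt-Tm lost their calls (limma adjusted p = 0.128, 0.12 and 0.18).

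Among the 20 nuclear members 2 rose, Ppargc1b and Supv3l1, and 0 fell, where 2.91% of all genes rose and 2.19% fell. With each library left out in turn, 0 or 1 of the 20 passed. The median log2 fold change was 0.11, and 6 of the 20 had no overlap with ALAS1/2-KO higher, where 11.3% of all genes did. With the libraries scaled to listed reads the median over all genes moved from -0.02 to 0.32, that of the nuclear members to 0.44, and 8 nuclear members passed, all higher. That scaling also moved the share of higher calls among all changed genes from 57.1% to 92.6%, and scaling that leaves out mitochondrial genes and the 20 most abundant others moved it to 42.2%. Under the last of these 1 nuclear member passed.

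**Figure D4:**
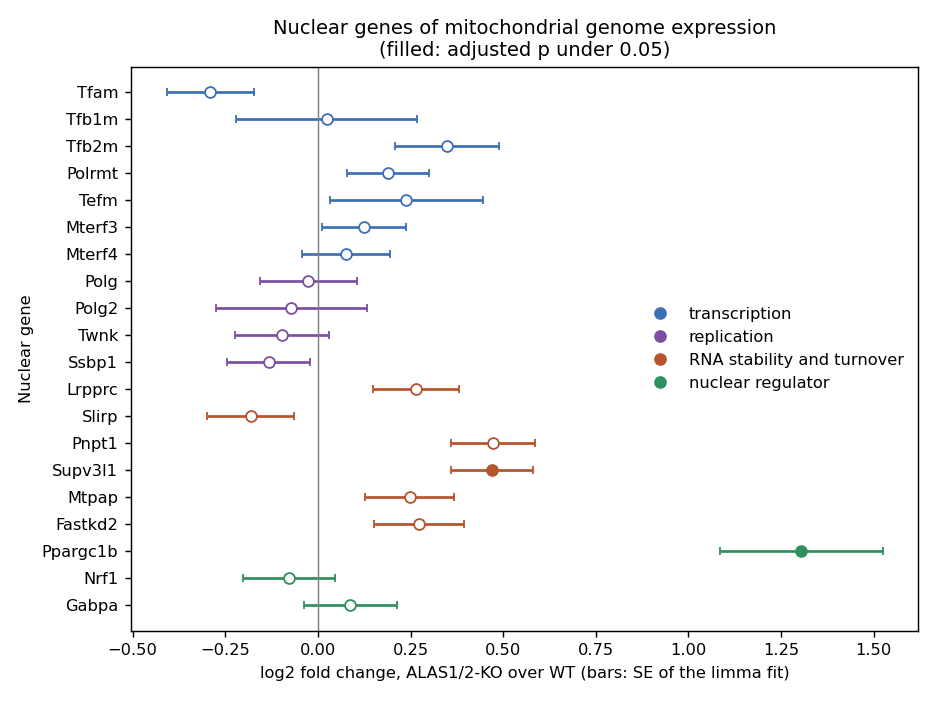
log2 fold change of the 20 nuclear members, ALAS1/2-KO over WT, with the SE of the limma fit as bars, coloured by role and filled where the adjusted p was under 0.05. Ppargc1b stands at 1.30 and Supv3l1 at 0.47, and the other 18 lie between -0.29 and 0.47.

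In the transcription machinery no member passed. Of its 7 members limma and limma voom called 0. An unadjusted limma p under 0.05 was found for 2 of the 7, where 23.7% of all genes had one. Their log2 fold changes ran from -0.29 to 0.35 over the 7. Tfam, the protein that packages mitochondrial DNA and opens its promoters, stood at 34.1, 40.1 and 38.9 CPM in WT and at 36.4, 30.6, 28.1 and 28.6 CPM in ALAS1/2-KO. ALAS1/2-KO replicate 1 lay within the WT range and the other 3 below it, and the difference did not pass (log2 fold change -0.29, SE 0.12, limma adjusted p = 0.184). Scaled to listed reads instead, its direction turned (log2 fold change 0.04).

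Polrmt, the mitochondrial RNA polymerase, stood at 17.9, 15.3 and 14.3 CPM in WT and at 19.2, 16.5, 17.5 and 18.7 CPM in ALAS1/2-KO, with overlapping groups (log2 fold change 0.19, limma adjusted p = 0.344). Tfb2m, the factor that melts the promoter with the polymerase, averaged 9.48 ± 0.794 CPM for WT against 12.2 ± 1.79 for ALAS1/2-KO (SD, n = 3 and 4, limma adjusted p = 0.183). Tfb1m, an rRNA methyltransferase, stood at 3.61 and 3.79 CPM, Tefm, the elongation factor, at 4.51 and 5.45, and Mterf3 and Mterf4, of the transcription termination factor family, at 13.6 and 14.8 and at 9.77 and 10.3 CPM. None of these 4 passed (limma adjusted p = 0.965, 0.52, 0.54 and 0.731), with 0 under 0.05 before adjustment and 0 by voom.

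Promoters of several of these genes are known to bind the ETS-family factor GABP and NRF1. The ETS motif CCGGAAGT was searched on both strands in 19 RefSeq promoters (300 bases, GRCm38.p6) of 17 of the 20 nuclear members. It lay in 4 of the 19, those of Tfam, Polg, Tefm and Twnk, and in 3.89% of all 32851 promoters. The palindromic NRF1 consensus lay in 0 of the 19 and in 0.971% of all. The remaining nuclear members were not in this search. A member not named here, such as Ppargc1b, can therefore not be read as lacking either motif. The 4 matches are printed 5′ to 3′ along the gene, with the motif in capitals, to show their letters beside genes that did not pass the test.
Tfam: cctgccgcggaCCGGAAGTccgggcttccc
Polg: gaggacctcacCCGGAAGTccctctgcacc
Tefm: agcacacgaaaCCGGAAGTtgaggaggaac
Twnk: actaaccggtgACTTCCGGttccggggttg
They lie at chr10:71238073-71238102, chr7:79466293-79466322, chr11:80142144-80142173 and chr19:45006436-45006465, the first 3 on the minus strand.

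**Figure D5:**
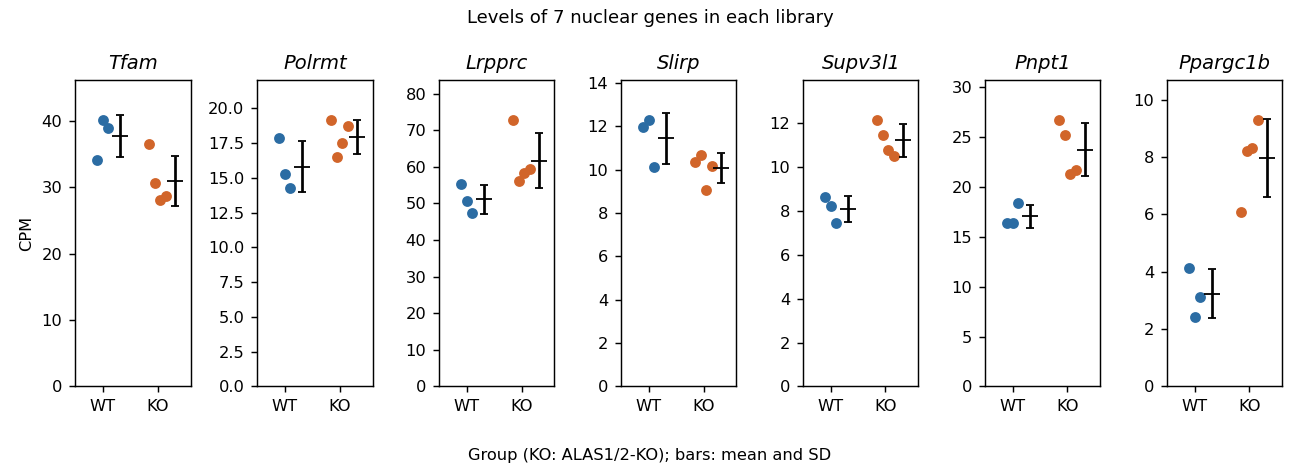
CPM of 7 nuclear members in each library, with 1 point per library and the mean and SD beside them, each panel starting at 0. Supv3l1, Pnpt1, Lrpprc and Ppargc1b have every ALAS1/2-KO point above every WT point, and Tfam, Polrmt and Slirp overlap.

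The replication group, which copies mitochondrial DNA, had 0 of 4 called by limma, 0 by voom, and 0 under 0.05 before adjustment. Polg, the catalytic subunit of the DNA polymerase, stood at 30.3 ± 2.77 and 29.9 ± 4.37 CPM (SD, n = 3 and 4, limma adjusted p = 0.924), and Polg2, its accessory subunit, at 3.96 and 3.79 CPM. Twnk, the helicase, stood at 22.5 and 21.2 CPM, and Ssbp1, which binds single-stranded DNA, at 17.5 and 16 CPM. The 4 log2 fold changes ran from -0.13 to -0.03, and scaled to listed reads instead all 4 were positive, at 0.20 to 0.31.

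Of 6 genes of RNA stability and turnover 1 rose, Supv3l1, where 2.91% of all genes did, and 5 had no overlap with ALAS1/2-KO higher, against 11.3% of all genes. Supv3l1 (chromosome 10, 62429209 to 62449738), the helicase of the complex that degrades mitochondrial RNA, stood at 8.61, 8.22 and 7.44 CPM in WT and at 12.2, 11.4, 10.8 and 10.5 CPM in ALAS1/2-KO. All 4 ALAS1/2-KO libraries lay above every WT library, and Supv3l1 rose 1.38-fold (log2 fold change 0.47, SE 0.11, limma adjusted p = 0.0493). Its partner in that complex, Pnpt1, the polynucleotide phosphorylase, stood at 16.4, 16.4 and 18.4 CPM in WT and at 26.8, 25.2, 21.3 and 21.7 CPM in ALAS1/2-KO. Pnpt1 likewise did not overlap and narrowly missed the threshold (1.39-fold, log2 fold change 0.47, SE 0.11, limma adjusted p = 0.0522). The Supv3l1 call was lost whichever of the 7 libraries was left out (limma adjusted p = 0.0816 to 0.174), and with the non-parenchymal covariate (0.264), while its log2 fold change lay between 0.35 and 0.80 in all 19 alternative fits.

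Lrpprc and Slirp form the complex that protects mitochondrial mRNAs and supports their polyadenylation. Lrpprc stood at 55.3, 50.7 and 47.4 CPM in WT and at 72.9, 56.2, 58.4 and 59.3 CPM in ALAS1/2-KO, without overlap and without passing (log2 fold change 0.27, SE 0.12, limma adjusted p = 0.211). Slirp stood at 12, 12.3 and 10.1 CPM in WT and at 10.4, 10.7, 9.08 and 10.2 CPM in ALAS1/2-KO, with overlapping groups (log2 fold change -0.18, limma adjusted p = 0.384). Mtpap, the poly(A) polymerase, had 9.61 ± 0.764 and 11.4 ± 1.19 CPM, and Fastkd2, which binds the large-subunit rRNA, 9.3 ± 0.817 and 11.3 ± 1.09 CPM (SD, n = 3 and 4, limma adjusted p = 0.252 and 0.216).

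Ppargc1b, the coactivator PGC-1β of genes of mitochondrial biogenesis and lipid metabolism, rose most among the nuclear members. It stood at 4.12, 2.42 and 3.13 CPM in WT and at 6.08, 8.22, 8.31 and 9.3 CPM in ALAS1/2-KO. The groups did not overlap, and ALAS1/2-KO replicate 1 was nearest to WT here, while it was farthest from WT for the 6 abundant mRNAs. The increase was 2.47-fold (log2 fold change 1.30, SE 0.22, limma adjusted p = 0.0197). Ppargc1b passed with the non-parenchymal covariate (limma adjusted p = 0.00656) and in 4 of the 7 fits without a library, and the call ended without ALAS1/2-KO replicate 4, or without replicate 2 or 3 of WT (limma adjusted p = 0.0545, 0.0919 and 0.054).

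The transcription factors it acts beside did not pass. Nrf1, nuclear respiratory factor 1, averaged 7.44 ± 0.225 CPM for WT against 7.07 ± 0.69 for ALAS1/2-KO (SD, n = 3 and 4, limma adjusted p = 0.742). Gabpa, the DNA-binding subunit of GABP, stood at 23.4 ± 2.68 and 25 ± 3.11 CPM (limma adjusted p = 0.71). In a list of 10 other tested regulators of biogenesis 2 rose and 0 fell, where 2.91% of all genes rose and 2.19% fell. They were Mtor, the growth kinase, from 26.1 to 39.8 CPM (1.53-fold, limma adjusted p = 0.0234) and Esrra, the nuclear receptor ERRα, from 15.1 to 22.4 CPM (1.49-fold, limma adjusted p = 0.0342).

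In the lists of RNA processing and of the FASTK family single genes rose and none fell, where 2.91% of all genes rose. Over all background lists together, including those not reported here, limma called 6 of 119 tested genes, all higher, against 5.1% of all genes. Of the 119, 23 had an unadjusted p under 0.05, against 23.7% of all genes, so these single calls do not set the lists apart. Of 7 genes that cut and process the precursor RNA 1 rose, Hsd17b10, a subunit of mitochondrial RNase P that is also a fatty acid and steroid dehydrogenase, from 59.1 ± 10.4 to 125 ± 29.1 CPM (SD, n = 3 and 4, 2.09-fold, limma adjusted p = 0.0263). Of 5 FASTK family genes, which act on mitochondrial mRNAs, 1 rose, Fastk, 1.36-fold (limma adjusted p = 0.0436). Nucleases and RNA turnover (8 tested), translation factors (13) and tRNA and rRNA modification (17) had 0 called by limma and by limma voom, with 0, 1 and 3 at an unadjusted p under 0.05. Their named members were Grsf1 (49.9 and 53.9 CPM in WT and ALAS1/2-KO) and Rexo2 (36.9 and 33.4), Tufm (39.5 and 43.5) and Gfm1 (36.2 and 44.3), and Trit1 (10.1 and 12.8) and Pus1 (9.31 and 11.6).

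Nuclear genes whose products sit in the same complexes included 0 that fell. Of 31 nuclear subunits of complexes I, III, IV and V limma and limma voom called 0. An unadjusted limma p under 0.05 was found for 3, all higher, where 23.7% of all genes had one in either direction. The median log2 fold change of the 31 was 0.07, against -1.18 for the 13 mitochondrial mRNAs and -0.02 for all genes. Cox4i1 of complex IV stood at 201 ± 25.5 and 189 ± 9.21 CPM (SD, n = 3 and 4, limma adjusted p = 0.701). Uqcrc2 of complex III had 94.2 and 122 CPM (limma adjusted p = 0.122) and Atp5b of complex V 466 and 563 CPM (limma adjusted p = 0.254). No test of the difference between these lists and the mitochondrial genes was made.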

How the data were processed

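RNA was taken up in Trizol and libraries were made with a TruSeq kit from total RNA, per the labels' protocols. The submitters' processing notes name cutadapt, HISAT2 and mm10. The sources used here do not give versions, the read counter, the annotation or strand handling. The authors deposited 1 table named as CPM whose values are on a log2 scale, with scaled library sizes and a small prior. Taken off that scale and less a floor of 0.0676 CPM, at least 99.99% of values per library were whole multiples of a step (within 0.01 reads), which gave reads per gene. CPM values in the text are the deposited values with that floor subtracted.

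The deposited log2 values of genes with at least 1 CPM in 3 libraries were fitted with limma 3.58.1 in R 4.3.3 (trend, robust). P-values are two-sided and were adjusted by Benjamini-Hochberg over 12105 genes. Fold changes are on the log2 scale with the deposited prior and understate changes of low genes. The procedure was tested on simulated data.

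Members, gene lists and tests were chosen with earlier results of these data known. The text names every member, and from each other list up to 3 changed genes with the smallest p or, with none, the 2 most abundant. Some results of these lists are not reported here. Positions and copies come from GENCODE M21 and promoters from RefSeq. Alternatives were other scalings, filters, a pseudocount of 1, variance models, a replicate block, a marker covariate, copies added and each library left out. Limma voom, and leaving out 2 libraries together, were chosen after seeing the data.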

Additional observations from a re-analysis of the deposited data

Results flagged for a closer look

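For 6 mitochondrial mRNAs the lowest of the 4 ALAS1/2-KO libraries, replicate 1 each time, lay far from the other 3. Its gap to the nearest library, divided by the whole range of the group, was 0.922 for mt-Co1, 0.899 for mt-Cytb, 0.861 for mt-Nd1, 0.912 for mt-Nd4, 0.831 for mt-Nd5 and 0.958 for mt-Nd6, above Dixon's 95% critical value for 4 samples. In all 42 values were examined in this group, and chance gives about 1 in 20. The 6 mRNAs share 1 library and are not independent. The same library had the lowest summed level of non-parenchymal markers, 325 CPM against 901 to 1872 CPM in the other ALAS1/2-KO libraries, and the part of those cells in the result was not tested.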

How the results depend on the processing

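The lower share of mitochondrial reads kept its direction under the 11 alternatives run for it (-17.5 to -9.07 percentage points). Those that left libraries out could not turn it, since every WT share lay above every ALAS1/2-KO share, so they show only its size. Counts of changed genes moved more. Over all genes, 617 became 2739 with CPM rescaled to listed reads, 355 without trend and robust moderation, 208 without WT replicate 2 and ALAS1/2-KO replicate 1 together, and 100 to 802 with each library left out. For mitochondrially encoded genes, 8 became 16, 3 and 1 under the first 3 of these, 0 with the non-parenchymal covariate (limma, 7 at an unadjusted p under 0.05), and 0 to 11 with each library left out. For nuclear members, 2 became 8, 1 and 1, then 1 with the covariate, 1 when scaled without abundant genes, and 0 to 1 with each library left out. With the replicate block, 72 genes passed over all, 1 mitochondrial (mt-Co2) and 0 nuclear (limma, 4 at an unadjusted p under 0.05). Replicate number 4 exists in ALAS1/2-KO only, so the block takes up that library. This fit therefore compares replicates 1 to 3 of each group. Same-numbered libraries had correlations of -0.03, 0.05 and 0.18, so the numbers were not taken to pair them, and not every library correlated best with its own number. The causes of these shifts were not tested.

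Directions turned for nuclear members that had not passed, and for none that had. With CPM rescaled to listed reads the log2 fold changes were 0.044 for Tfam, 0.31 for Polg, 0.26 for Polg2, 0.24 for Twnk, 0.20 for Ssbp1, 0.15 for Slirp and 0.25 for Nrf1. With the covariate they were -0.30 for Tfb1m, -0.14 for Tefm, 0.072 for Polg, 0.13 for Polg2 and -0.13 for Gabpa. Tfb1m was -0.039 when scaled without abundant genes. With WT replicate 2 and ALAS1/2-KO replicate 1 left out together Tfb1m was -0.066 and Mterf4 -0.028. Polg2 was 0.10 with quantile normalization. With each library left out, Tfb1m ranged from -0.14 to 0.18, Mterf4 from -0.033 to 0.16, Polg from -0.11 to 0.054 and Polg2 from -0.16 to 0.047. Quantile normalization, which replaces values by rank, gave 0 for mt-Nd1 and mt-Nd2, whose ranks are the same in every library, -0.14 for mt-Co1, mt-Cytb and mt-Nd5, and -0.70 for mt-Nd4, and mt-Nd2 and mt-Atp6 lost their calls. The planned negative-binomial count test was not run, and limma voom on recovered reads was used in its place. mt-Te rested on 14 to 143 reads per library, the fewest of the members, which limits its precision.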
